A study of Homo sapiens with 12 samples.

Results

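Expression of 10 genes that mark the passage of a cortical progenitor into a neuron was followed through FEZ1-null and wildtype cerebral organoids. They are the proneural factor NEUROG2, the basic helix-loop-helix (bHLH) factors NEUROD1, NHLH1, NEUROD2 and NEUROD6, and 5 genes of intermediate progenitors, EOMES, PPP1R17, INSM1, HES6 and BTG2. They were taken by gene symbol from the raw count table, where all 10 were found among 28207 genes, and all 10 were among the 17757 genes with enough counts to be tested.

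Gene expression was measured by bulk RNA sequencing of 12 organoid libraries, all derived from the established human embryonic stem cell line H1. FEZ1 encodes an adaptor that links kinesin motors to their cargo, and the series concerns its role in the specification and migration of neural progenitors. FEZ1-null organoids gave 2 libraries at day 60 and 4 at day 10, and wildtype organoids of the same line gave 2 at day 60 and 4 at day 10. Each library also carries a code, which at day 10 is B16 for replicates 1 and 2, B27 for replicate 3 and B29 for replicate 4 of each genotype, and at day 60 is B16 throughout. The sources used here do not give what the codes stand for, how FEZ1 was inactivated or how many knockout clones were used. No label says that replicate libraries are separate cultures, and p-values therefore measure the spread between libraries, possibly a technical one.

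In the developing cortex, proneural bHLH factors such as NEUROG2 pair with E proteins, bind the E-box in DNA and start neuronal differentiation, while Notch signalling between neighbouring cells holds progenitors back. Radial glia divide to give intermediate progenitors, which express EOMES and in turn produce excitatory neurons, and NEUROD factors follow in cells that leave the cycle. Several of the same factors are also used outside the cortex, since NEUROD1 and INSM1 also act in peripheral sensory neurons or in endocrine cells.

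The promoters are shown because most members are bHLH factors, whose DNA motif is the E-box, so that its matches beside each gene can be read with the levels that follow. RefSeq gave a promoter of 300 bases (250 before to 50 after the start of transcription, build GRCh38.p14) for 9 of the 10 genes, all but INSM1. Of these, 5 are printed 5′ to 3′ on the strand of the gene, in lower case with every E-box match (CANNTG, where N is any base) in capitals. NEUROD1 (chr2:181680468-181680767, minus strand), NHLH1 (chr1:160366821-160367120, plus strand) and PPP1R17 (chr7:31686965-31687264, plus strand) had the highest rises in wildtype B16 libraries at day 10. NEUROD2 (chr17:39607871-39608170, minus strand) and NEUROD6 (chr7:31340677-31340976, minus strand) had almost no counts at day 10 and high counts at day 60.
NEUROD1: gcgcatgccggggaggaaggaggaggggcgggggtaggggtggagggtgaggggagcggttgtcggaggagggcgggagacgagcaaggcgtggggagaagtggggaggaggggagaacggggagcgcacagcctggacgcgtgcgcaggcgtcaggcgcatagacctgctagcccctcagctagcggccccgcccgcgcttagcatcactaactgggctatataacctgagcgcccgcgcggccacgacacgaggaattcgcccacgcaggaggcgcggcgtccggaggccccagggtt
NHLH1: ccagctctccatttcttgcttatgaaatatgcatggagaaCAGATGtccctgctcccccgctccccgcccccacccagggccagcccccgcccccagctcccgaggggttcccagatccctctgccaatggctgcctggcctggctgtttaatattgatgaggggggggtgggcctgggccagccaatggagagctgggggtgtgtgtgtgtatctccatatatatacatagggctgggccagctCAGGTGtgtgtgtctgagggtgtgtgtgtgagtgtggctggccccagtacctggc
PPP1R17: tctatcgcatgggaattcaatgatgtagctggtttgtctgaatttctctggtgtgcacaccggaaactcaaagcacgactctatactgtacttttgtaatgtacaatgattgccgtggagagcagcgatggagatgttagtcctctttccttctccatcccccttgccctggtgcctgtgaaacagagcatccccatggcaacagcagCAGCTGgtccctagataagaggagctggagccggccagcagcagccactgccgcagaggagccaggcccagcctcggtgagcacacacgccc
NEUROD2: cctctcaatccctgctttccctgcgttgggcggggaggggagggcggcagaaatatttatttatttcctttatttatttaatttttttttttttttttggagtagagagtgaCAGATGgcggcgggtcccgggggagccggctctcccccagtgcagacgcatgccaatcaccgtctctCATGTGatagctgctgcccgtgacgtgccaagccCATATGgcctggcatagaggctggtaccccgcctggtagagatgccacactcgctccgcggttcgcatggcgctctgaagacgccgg
NEUROD6: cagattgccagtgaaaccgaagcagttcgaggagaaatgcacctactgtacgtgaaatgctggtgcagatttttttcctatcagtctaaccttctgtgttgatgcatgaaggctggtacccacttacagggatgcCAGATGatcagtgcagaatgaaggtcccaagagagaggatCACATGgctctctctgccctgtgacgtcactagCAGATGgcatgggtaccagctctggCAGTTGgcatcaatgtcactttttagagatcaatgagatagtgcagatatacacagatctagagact
NEUROD6 held 4 E-box matches, NEUROD2 3, NHLH1 and EOMES 2 each, PPP1R17 and HES6 1 each, and NEUROD1, NEUROG2 and BTG2 0. CANNTG reads the same on both strands, and 68.7% of 35116 RefSeq promoters of the same length held at least 1. The version CAGATG, searched with its reverse complement CATCTG and counted among the E-boxes, was in NEUROD6 with 2 matches and in NEUROD2 and NHLH1 with 1 each, and in 14.7% of all promoters. CAGCTG, which is its own reverse complement and is also counted among the E-boxes, was in EOMES, PPP1R17 and HES6, and in 17.9% of all promoters. The NEUROD1 promoter, which held no match, and the NHLH1 promoter, which held 2, belong to genes whose levels moved closely alike over the 12 libraries once each was centred on its mean. A match describes the letters in the window only, and its relation to the levels was not tested.

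**Figure D1:**
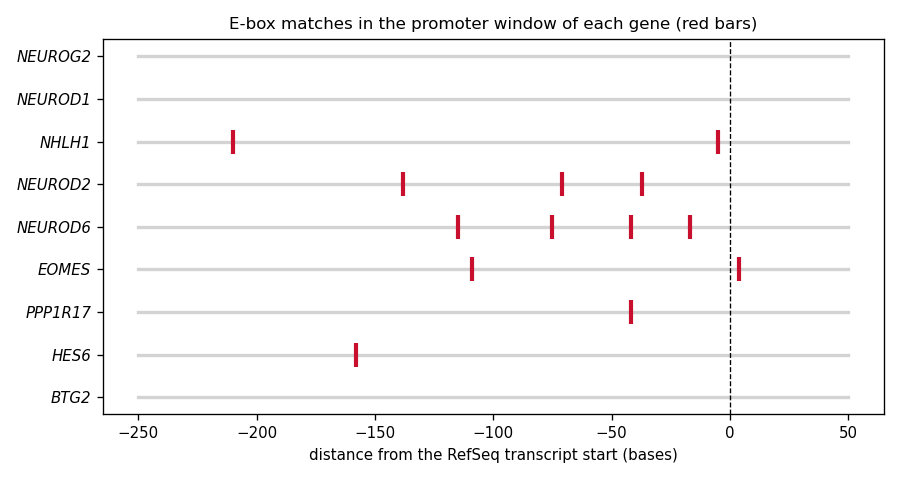
E-box matches (CANNTG, red bars) in the promoter window of 9 genes, by distance from the RefSeq start of transcription in bases (dashed line at 0). NEUROD6 has 4 matches and NEUROD1, NEUROG2 and BTG2 have none.

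The libraries held between 15.7 M and 22.7 M counts each. FEZ1 had 47.6 and 48.4 CPM (the count scaled to the library's total) in FEZ1-null organoids at day 60, against 239.9 and 197 CPM in wildtype organoids. At day 10 it had 19.4 to 22.7 CPM in FEZ1-null libraries and 40.5 to 49.0 CPM in wildtype libraries, so the genotype labels and the level of the targeted gene went together within every code. Both wildtype B16 libraries of day 10 stood apart from the other 6 of that day in the members' levels, as described next. FEZ1-null replicate 1 of day 10 stood out by its share of ribosomal protein counts (13.2%, against 7.95 to 9.91% in the 7 others of that day). Its counts also lay far from those of the other FEZ1-null libraries of day 10. The chi-square per gene, with library totals allowed for, was 86.1 against replicate 2, 116 against replicate 3 and 144 against replicate 4. Between replicate 2 and replicates 3 and 4 it was 18.9 and 28.5. Exons of NEUROD1 overlap those of CERKL on the same strand and exons of NEUROG2 overlap an antisense transcript in the GENCODE annotation of GRCh38, and the sources used here do not say whether counting used the strand. CERKL had 181 counts over all 12 libraries.

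At day 10 the members fell into 3 kinds. NEUROD1, NHLH1, PPP1R17, INSM1 and HES6 were high in both wildtype B16 libraries and low in the 6 others. NEUROG2, EOMES and BTG2 were detected at day 10 without that difference. NEUROD2 and NEUROD6 were almost without counts in all 8 libraries of that day. In bulk RNA, fewer cells of a type and less RNA per cell cannot be told apart.

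**Figure D2:**
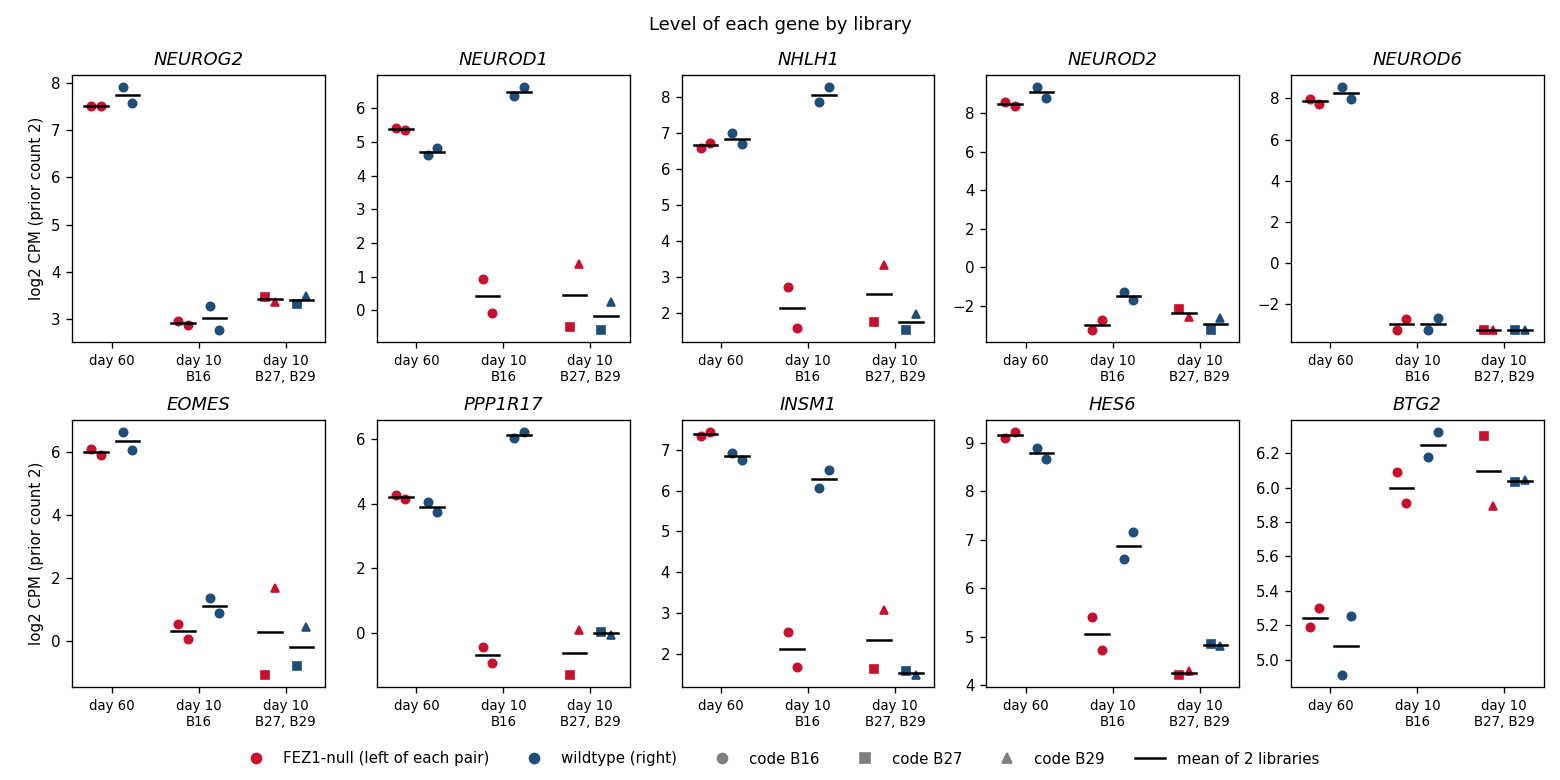
Level of each of the 10 genes in each of the 12 libraries as log2 CPM (prior count 2), with the mean of the 2 libraries of each group as a bar and the vertical scale set for each gene. FEZ1-null libraries are red and stand left of wildtype libraries in blue. NEUROD1, NHLH1, PPP1R17, INSM1 and HES6 are high in the wildtype B16 pair at day 10, and NEUROD2 and NEUROD6 are high at day 60 only.

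NEUROG2, the proneural factor that starts the excitatory neuron programme of the dorsal telencephalon, was low in every day 10 library, between 6.72 and 11.1 CPM. It had 7.62 and 7.23 CPM in FEZ1-null B16 libraries, against 9.62 and 6.72 CPM in wildtype B16 libraries. The B27 and B29 libraries had 11 and 10.2 CPM in FEZ1-null organoids and 9.87 and 11.1 CPM in wildtype organoids. The genotypes overlapped within both sets of codes, with a log2 fold change of FEZ1-null over wildtype of -0.14 ± 0.19 within B16 (SE, adjusted p = 0.623) and 0.02 ± 0.19 within B27 and B29 (adjusted p = 1).

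NEUROD1, a bHLH factor switched on downstream of neurogenins as cells become postmitotic, had 1.80 and 0.845 CPM in FEZ1-null B16 libraries and 81.2 and 98.7 CPM in wildtype B16 libraries. The B27 and B29 libraries had 0.607 and 2.51 CPM in FEZ1-null organoids and 0.565 and 1.08 CPM in wildtype organoids. Only the 2 wildtype B16 libraries of the 8 were above 3 CPM. The genotypes did not overlap within B16, where FEZ1-null over wildtype gave -6.12 ± 0.45 on the log2 scale (adjusted p = 1.3e-05).

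NHLH1, a bHLH factor of newly born neurons, followed the same course. It had 6.40 and 2.86 CPM in FEZ1-null B16 libraries, against 229 and 308 CPM in wildtype B16 libraries. The genotypes did not overlap, and the log2 fold change within B16 was -5.88 ± 0.50 (adjusted p = 2.85e-05). In B27 and B29 libraries it had 3.21 and 9.97 CPM in FEZ1-null organoids and 2.78 and 3.77 CPM in wildtype organoids, and the genotypes overlapped.

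EOMES, the T-box factor that defines cortical intermediate progenitors, did not share that rise. It had 1.34 and 0.939 CPM in FEZ1-null B16 libraries, from 23 and 20 counts, against 2.45 and 1.72 CPM in wildtype B16 libraries, from 55 and 33 counts. In B27 and B29 it had 0.364 and 3.09 CPM in FEZ1-null organoids and 0.463 and 1.26 CPM in wildtype organoids. Within B16 the groups did not overlap, but the log2 fold change of -0.90 ± 0.66 did not pass (adjusted p = 0.365). The lowest and the highest EOMES level of day 10 were both in FEZ1-null libraries of B27 and B29.

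PPP1R17, which encodes a regulatory subunit of protein phosphatase 1 and is used as a marker of intermediate progenitors, had 0.640 and 0.423 CPM in FEZ1-null B16 libraries and 64.7 and 73.3 CPM in wildtype B16 libraries. The 4 libraries of B27 and B29 had 0.303 and 0.965 CPM in FEZ1-null organoids and 0.925 and 0.856 CPM in wildtype organoids. Both wildtype B16 libraries stood above the 6 others, and the log2 fold change within B16, -7.03 ± 0.33, was the largest fall among the members (adjusted p = 1.62e-06).

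INSM1, a zinc finger repressor that in mouse promotes the formation of basal progenitors, had 5.70 and 3.10 CPM in FEZ1-null B16 libraries, against 66.5 and 91.2 CPM in wildtype B16 libraries. B27 and B29 libraries had 2.97 and 8.30 CPM in FEZ1-null organoids and 2.88 and 2.68 CPM in wildtype organoids. The wildtype B16 pair was again above all others, and within B16 the log2 fold change was -4.18 ± 0.40 (adjusted p = 6.5e-05).

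HES6, a bHLH factor that opposes HES1 and favours differentiation, was present in all day 10 libraries and changed less. It had 42.1 and 26.2 CPM in FEZ1-null B16 libraries, against 97.5 and 143 CPM in wildtype B16 libraries, and the genotypes did not overlap (log2 fold change -1.82 ± 0.23, adjusted p = 0.000428). In B27 and B29 libraries it had 18.4 and 19.6 CPM in FEZ1-null organoids and 28.8 and 27.7 CPM in wildtype organoids. These did not overlap, and the log2 fold change of -0.58 ± 0.23 did not pass (adjusted p = 1).

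BTG2, an antiproliferative gene that in mouse marks progenitors about to make neurons, was level across day 10, at 59.4 to 78.6 CPM in FEZ1-null libraries and 65.4 to 79.9 CPM in wildtype libraries over all codes. NEUROD2 and NEUROD6, bHLH factors of differentiated cortical excitatory neurons, had 0 to 2 counts per library at day 10 in FEZ1-null organoids. Wildtype organoids had 7 and 4 counts of NEUROD2 in B16 libraries, 0 and 1 in the others, and at most 1 count of NEUROD6 in any. The summed NEUROD2 counts of 1 in FEZ1-null and 11 in wildtype B16 libraries gave a ratio of 0.0983, with a 95% exact binomial interval from 0.00228 to 0.677 that covers counting error only, and the test did not pass (adjusted p = 0.0601), though it did with no filter on low counts and without either wildtype library of day 60.

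Within B16 at day 10, 5 of 10 members were thus lower in FEZ1-null than in wildtype organoids and 0 were higher, where 11% of all 17757 genes tested were lower, 8% higher and 19% changed. The median log2 fold change was -2.43 over the members and -0.01 over all genes. Within B27 and B29, 0 of 10 members passed in edgeR's test or in DESeq2, where 0.0507% of genes did in edgeR (0.0113% higher and 0.0394% lower), and 2 members, HES6 and INSM1, had an unadjusted p below 0.05, which 3.6% of all genes had. Their directions there differed, since HES6 was at -0.58 and INSM1 at 1.01 ± 0.43. The median over the members was 0.49. The positive values of INSM1, NHLH1, NEUROD1 and EOMES came mainly from 1 library, FEZ1-null replicate 4 (B29). It had 8.30 CPM of INSM1 and 9.97 CPM of NHLH1, against 2.97 and 3.21 CPM in FEZ1-null replicate 3 (B27).

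The difference of the genotype effect between codes was tested directly. It was -7.03 ± 0.75 for NEUROD1 (adjusted p = 0.000542), -6.88 ± 0.68 for NHLH1 (adjusted p = 0.000345), -6.52 ± 0.62 for PPP1R17 (adjusted p = 0.000289) and -5.19 ± 0.58 for INSM1 (adjusted p = 0.000703) on the log2 scale, effect within B16 minus effect within B27 and B29. These 4 members passed in the negative direction, which 4.44% of all genes did, with 1.51% in the positive direction and 5.95% in either. HES6, at -1.24 ± 0.33, lay at the threshold (adjusted p = 0.0514), and it passed with DESeq2, with no filter on low counts, and without FEZ1-null replicate 1 or 2 or wildtype replicate 1 of day 10. EOMES, at -1.90 ± 1.0 (adjusted p = 0.291), passed when FEZ1-null replicate 3 of day 10, its lowest library, was left out (adjusted p = 0.0425).

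**Figure D3:**
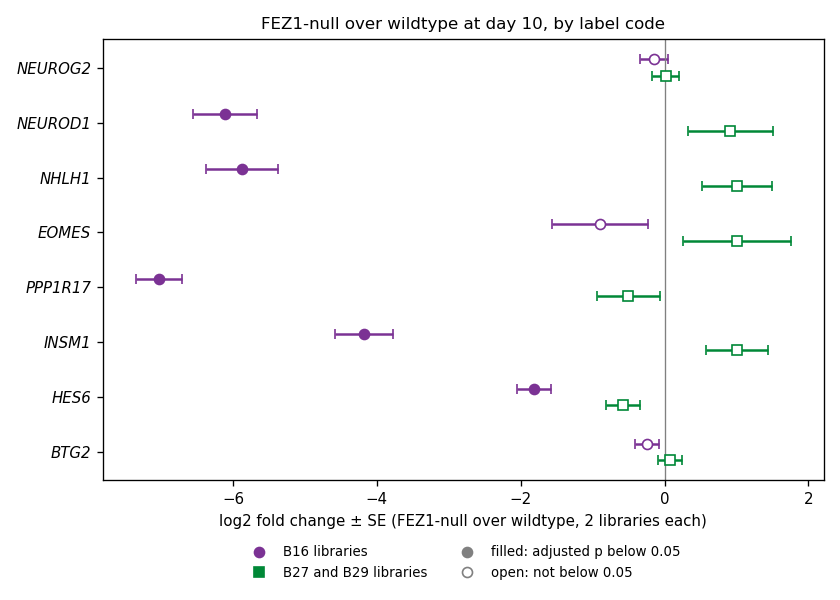
Log2 fold change of FEZ1-null over wildtype organoids at day 10 with its SE, for 8 genes, within B16 (circles) and within B27 and B29 (squares), 2 libraries of each genotype in each. Filled symbols have an adjusted p below 0.05, and NEUROD2 and NEUROD6 are left out for their few counts. In all, 5 genes are lower within B16 and none of these passes within B27 and B29.

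Which genotype differed between codes was seen by comparing codes within each genotype, which uses the same libraries as the comparisons above and is no separate evidence. In wildtype organoids 5 of 10 members were higher in B16 than in B27 and B29 libraries and 0 were lower, against 10.8% of all genes higher, 5.98% lower and 16.8% in either direction. The log2 fold changes were 6.77 ± 0.47 for NEUROD1 (adjusted p = 8.78e-06), 6.36 ± 0.51 for NHLH1, 6.26 ± 0.31 for PPP1R17, 4.82 ± 0.42 for INSM1 and 2.09 ± 0.23 for HES6 (adjusted p = 0.000183). EOMES, at 1.31 ± 0.70, and NEUROG2, at -0.35 ± 0.19, did not pass (adjusted p = 0.241 and 0.240), though EOMES passed with B27 and B29 kept as separate groups (adjusted p = 0.0421). NEUROD2 had 11 summed counts in B16 and 1 in the others, a ratio of 9.77 with an interval from 1.42 to 420.6. In FEZ1-null organoids 0 of 10 members passed between B16 and the other codes in edgeR's test, where 3.01% of all genes did (2.7% higher and 0.31% lower), 2 (HES6 and NEUROG2) had an unadjusted p below 0.05, and DESeq2 called HES6 alone of the members. Over all genes 27.8% had an unadjusted p below 0.05 there and DESeq2 called 1972. HES6 was at 0.85 ± 0.23 there (adjusted p = 0.0759). In FEZ1-null B16 libraries it had 42.1 CPM in replicate 1 and 26.2 CPM in replicate 2, against 18.4 and 19.6 CPM in B27 and B29.

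Markers of other cell types moved with these 5 genes. The 8 neural crest genes, among them SOX10 and TFAP2B, summed to 53.7 to 60.2 CPM in FEZ1-null B16 libraries, 834 to 1232 CPM in wildtype B16 libraries, 59.7 to 81.4 CPM in FEZ1-null B27 and B29 libraries and 61.4 to 63.7 CPM in wildtype B27 and B29 libraries. All 8 were higher in wildtype B16 than in the other wildtype libraries of day 10, SOX10 by a log2 fold change of 5.44 ± 0.42, and all 8 were lower in FEZ1-null than in wildtype B16 libraries. The 11 genes of sensory neurons and placodes summed to 27.9 to 33.7 CPM in FEZ1-null B16 libraries and 537 to 719 CPM in wildtype B16 libraries, against 35.4 to 42.6 CPM in FEZ1-null and 36.5 to 37.9 CPM in wildtype libraries of B27 and B29. Of the 10 that were tested, 8 were higher in wildtype B16 than in the other wildtype libraries, among them ISL1 and PRDM12, and 9 were lower in FEZ1-null than in wildtype B16 libraries. ISL1, a LIM homeobox factor of sensory and motor neurons, had 42.9 to 51.0 CPM in wildtype B16 libraries and at most 0.193 CPM in any other library of day 10. The part of these cell types in the members' levels was not tested.

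Cortical markers gave a different picture. The telencephalic and cortical list of 10 genes summed to 401 to 576 CPM in FEZ1-null and 249 to 355 CPM in wildtype B16 libraries, against 356 to 484 CPM in FEZ1-null and 386 to 462 CPM in wildtype libraries of B27 and B29. In wildtype B16 libraries LHX2, a selector gene of the cortex, was lower than in the other wildtype libraries of day 10 (log2 fold change -2.25 ± 0.42, adjusted p = 0.00442), while the vesicular glutamate transporter SLC17A6 was higher (4.88 ± 0.48). In all, 2 of these 10 genes were higher and 2 lower. Eye field genes were lower in the same libraries, SIX6 by -4.55 ± 0.57 and RAX by -3.41 ± 0.61, with 4 of 6 retinal genes lower and 1 higher.

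**Figure D4:**
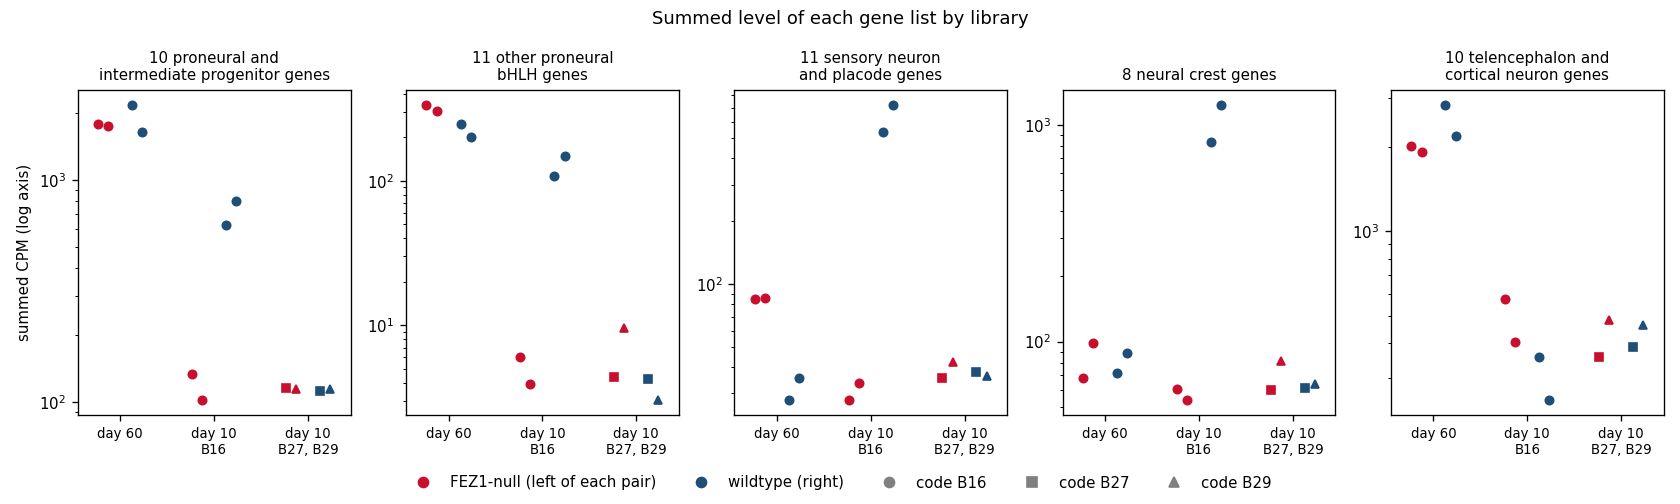
Summed CPM (log axis) of the 10 members and of 4 other gene lists in each of the 12 libraries, FEZ1-null in red left of wildtype in blue, with symbols for the label code. In wildtype B16 libraries of day 10 the neural crest genes reach 834 to 1232 CPM and the sensory and placode genes 537 to 719 CPM. The telencephalic genes have 249 to 355 CPM there, against 356 to 576 CPM in the other libraries of day 10.

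Other parts of the neurogenic pathway were described in the same libraries. Of 9 other proneural bHLH genes tested, 5 were higher in wildtype B16 than in the other wildtype libraries of day 10 and 0 were lower. NEUROG1, a neurogenin with a role in cranial and dorsal root ganglia among other tissues, differed by 6.20 ± 0.52 on the log2 scale and NEUROD4 by 5.45 ± 0.48. NEUROG1 had 0.798 to 2.91 CPM in FEZ1-null B16 libraries, against 61.0 to 87.4 CPM in wildtype B16 libraries, which passed, while its relative NEUROG2 did not pass in the same libraries. Among 14 Notch pathway genes 3 were higher and 0 lower, the inhibitory ligand DLL3 by 2.77 ± 0.25, JAG1 by 0.98 ± 0.23 and JAG2 by 0.66 ± 0.19. DLL3 had 13.8 to 21.0 CPM in FEZ1-null and 53.6 to 81.2 CPM in wildtype B16 libraries. Among E proteins, the partners of proneural factors, and ID proteins, which hold E proteins off DNA, 3 of 7 were lower (TCF12 by -1.12 ± 0.20, ID1 by -1.31 ± 0.29, ID2 by -0.83 ± 0.20) and 1 was higher.

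Of 16 genes of newborn neurons, 13 were higher in wildtype B16 libraries than in the other wildtype libraries of day 10 and 0 were lower. The RNA-binding proteins ELAVL4 and ELAVL3 differed by 4.85 ± 0.29 and 3.42 ± 0.25, and the neuronal splicing factor SRRM4 by 4.34 ± 0.27. Of the same 16 genes, 12 were lower and 1 was higher in FEZ1-null than in wildtype B16 libraries. Cell cycle genes went the other way, with 4 of 8 lower in wildtype B16 libraries, PCNA by -0.80 ± 0.14, CDK1 by -0.77 ± 0.15 and CCNB1 by -0.62 ± 0.13. Of 8 immediate early genes 6 were higher there, EGR1 by 3.26 ± 0.30, FOSB by 1.57 ± 0.24 and DUSP1 by 0.61 ± 0.16. Of 9 p53 targets 1 was higher, TP53INP1 by 1.47 ± 0.33, of 8 radial glia genes 1 was lower, SOX2 by -0.94 ± 0.20, and of the mesendoderm and pluripotency genes both of the 2 tested were lower, GSC by -2.07 ± 0.43 and POU5F1 by -1.30 ± 0.40. Each count between codes stands against 10.8% of all genes higher and 5.98% lower, and the count between genotypes within B16 against 8% higher and 11% lower.

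With all 4 libraries of each genotype at day 10 in 1 group, 0 of 10 members passed in edgeR's test, where 0.124% of all genes did (0.0394% higher and 0.0845% lower), 5 had an unadjusted p below 0.05 and DESeq2 called 3. Over all genes 12.3% had an unadjusted p below 0.05 and DESeq2 called 500. PPP1R17 was at -5.91 ± 1.38 (adjusted p = 0.221), NEUROD1 at -4.99 ± 1.36 (adjusted p = 0.226), NHLH1 at -4.61 ± 1.29 (adjusted p = 0.226), INSM1 at -3.03 ± 0.98 and HES6 at -1.48 ± 0.50 on the log2 scale, FEZ1-null over wildtype. The 3 calls by DESeq2 were PPP1R17 (adjusted p = 0.000240), NEUROD1 (adjusted p = 0.00669) and NHLH1 (adjusted p = 0.00953). The authors' deposited table gives the same 3 members an adjusted p below 0.05, with a log2 fold change of -5.88 for PPP1R17 (adjusted p = 0.000141), -4.95 for NEUROD1 (adjusted p = 0.00513) and -4.57 for NHLH1 (adjusted p = 0.00648), and INSM1 and HES6 an adjusted p of 0.0520 each. In each of these genes the values of 2 of the 4 wildtype libraries lay near those of the FEZ1-null libraries.

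At day 60, 9 of the 10 members were above their level in the low libraries of day 10 in both genotypes. NEUROD2 had 375 and 329 CPM in FEZ1-null organoids at day 60 and 657 and 447 CPM in wildtype organoids, and NEUROD6 had 254 and 210 CPM in FEZ1-null and 376 and 248 CPM in wildtype organoids. Against B16 libraries of day 10, the ratio for NEUROD2 was 13501 in FEZ1-null organoids, from 13105 summed counts at day 60 and 1 at day 10 (95% interval 2423 to 533309), and 2080 in wildtype organoids, from 21467 and 11 summed counts (1163 to 4168). NEUROD6 had 8623 summed counts at day 60 in FEZ1-null and 12128 in wildtype organoids, and 0 at day 10 in B27 and B29 libraries of either genotype. Taking 3 counts over the group as the limit of detection, it was at least 2464-fold higher at day 60 in FEZ1-null and at least 3828-fold higher in wildtype organoids than in those libraries.

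EOMES and NEUROG2 were far higher at day 60 than in any day 10 library. EOMES had 67.8 and 58.9 CPM in FEZ1-null and 98.1 and 66.1 CPM in wildtype organoids at day 60, a log2 fold change over B16 libraries of day 10 of 5.81 ± 0.58 in FEZ1-null (adjusted p = 1.13e-05) and 5.28 ± 0.54 in wildtype organoids (adjusted p = 1.76e-05). NEUROG2 had 184.0 and 183 CPM in FEZ1-null and 242 and 191 CPM in wildtype organoids at day 60, a log2 fold change of 4.63 ± 0.20 in FEZ1-null and 4.72 ± 0.20 in wildtype organoids. The test of a difference between genotypes in this change did not pass, with interaction terms of 0.52 ± 0.79 for EOMES (adjusted p = 0.714) and -0.10 ± 0.26 for NEUROG2 (adjusted p = 0.849).

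The 5 genes that were high in wildtype B16 libraries of day 10 changed with time by different amounts in the genotypes. PPP1R17 had 19.0 and 17.4 CPM in FEZ1-null and 16.4 and 13.3 CPM in wildtype organoids at day 60, so that day 60 was above B16 of day 10 by 5.11 ± 0.32 in FEZ1-null organoids and lay at -2.21 ± 0.23 in wildtype organoids. NEUROD1 had 42.4 and 40.4 CPM in FEZ1-null and 24.2 and 27.8 CPM in wildtype organoids at day 60, and its log2 fold change was 5.0 ± 0.44 in FEZ1-null and -1.79 ± 0.33 in wildtype organoids (adjusted p = 0.00101). NHLH1 had 95.9 and 104 CPM in FEZ1-null and 126 and 103 CPM in wildtype organoids, with a log2 fold change of 4.45 ± 0.47 in FEZ1-null and -1.23 ± 0.39 in wildtype organoids. PPP1R17, NEUROD1 and NHLH1 did not pass between genotypes at day 60, as given below. The fall of NHLH1 in wildtype organoids (adjusted p = 0.0201) was lost with DESeq2 (0.0526), with no filter on low counts (0.0785), without wildtype replicate 2 of day 10 (0.120) and without wildtype replicate 2 of day 60 (0.101).

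INSM1 had 163 and 172 CPM in FEZ1-null and 121 and 108 CPM in wildtype organoids at day 60. Its log2 fold change over B16 of day 10 was 5.26 ± 0.41 in FEZ1-null organoids and 0.54 ± 0.33 in wildtype organoids, where it did not pass (adjusted p = 0.187). HES6 had 549.9 and 598 CPM in FEZ1-null and 479.7 and 408 CPM in wildtype organoids at day 60, and rose in both genotypes, by 4.07 ± 0.25 in FEZ1-null and 1.89 ± 0.23 in wildtype organoids. BTG2 was the 1 member that fell with time in both, to 36.4 and 39.2 CPM in FEZ1-null organoids at day 60 (-0.76 ± 0.17, adjusted p = 0.00258) and to 30.0 and 38.0 CPM in wildtype organoids (-1.16 ± 0.17, adjusted p = 0.000201).

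The interaction of genotype and day within B16, the change with time in FEZ1-null minus that in wildtype organoids, passed for 5 of 10 members in the positive direction, where 5.63% of all genes did (2.04% in the negative direction and 7.68% in either). It was 7.32 ± 0.40 for PPP1R17 (adjusted p = 7.86e-06), 6.79 ± 0.55 for NEUROD1 (adjusted p = 5.8e-05), 5.68 ± 0.61 for NHLH1 (adjusted p = 0.00028), 4.72 ± 0.52 for INSM1 (adjusted p = 0.000309) and 2.19 ± 0.32 for HES6 (adjusted p = 0.00186). BTG2 did not pass, at 0.40 ± 0.24 (adjusted p = 0.334). This interaction shares its wildtype B16 libraries of day 10 with the comparisons of codes.

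**Figure D5:**
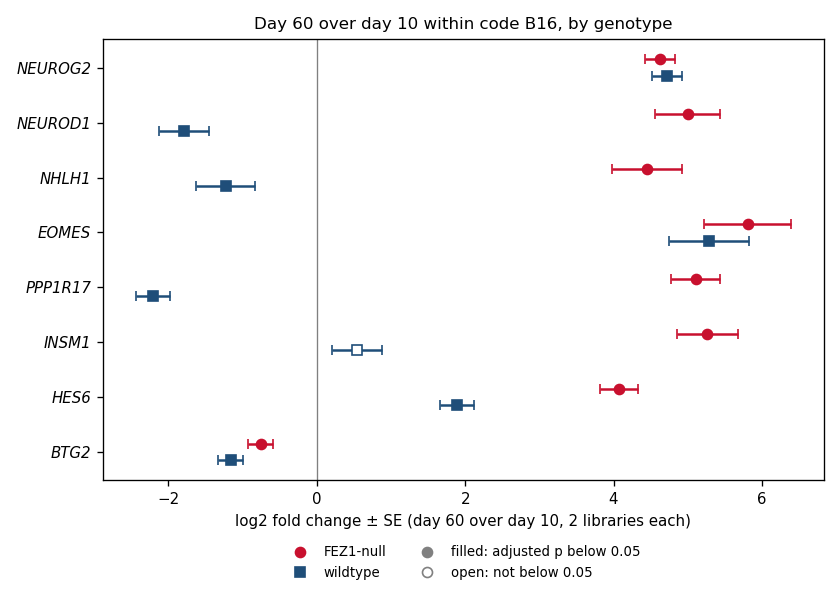
Log2 fold change of day 60 over day 10 with its SE, within B16, for 8 genes in FEZ1-null organoids (circles) and wildtype organoids (squares), 2 libraries per group. Filled symbols have an adjusted p below 0.05, and NEUROD2 and NEUROD6 are left out for their few counts at day 10. NEUROD1, NHLH1 and PPP1R17 lie on opposite sides of 0 in the genotypes and NEUROG2 and EOMES do not.

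Of all 10 members, 9 were higher and 1 lower at day 60 than in B16 libraries of day 10 in FEZ1-null organoids, where 33.6% of all genes were higher, 29.8% lower and 63.4% changed. In wildtype organoids 5 were higher and 4 lower, where 29.9% of all genes were higher, 28.5% lower and 58.4% changed. Against B27 and B29 libraries of day 10, which were low for the same genes in both genotypes, 9 members were higher and BTG2 was lower in FEZ1-null organoids (33.1% of all genes higher, 28.9% lower and 61.9% changed), and likewise in wildtype organoids (34.3% higher, 29.8% lower and 64.1% changed). The log2 fold changes there were 4.74 ± 0.43 in FEZ1-null and 4.98 ± 0.47 in wildtype organoids for NEUROD1, 3.93 ± 0.46 in FEZ1-null and 5.13 ± 0.49 in wildtype organoids for NHLH1, and 4.85 ± 0.32 in FEZ1-null and 4.05 ± 0.30 in wildtype organoids for PPP1R17. Every day 60 library carries B16, so day and code cannot be told apart in the comparison with B27 and B29.

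The company of the members differed between the days. At day 60 the telencephalic and cortical genes summed to 1923 to 2026 CPM in FEZ1-null and 2189 to 2829 CPM in wildtype organoids, several-fold above day 10, and 9 of 10 were higher than in B16 libraries of day 10 in wildtype organoids. The neural crest genes summed to 68.2 to 98.4 CPM in FEZ1-null and 71.8 to 88.6 CPM in wildtype organoids. The sensory and placode genes summed to 84.6 to 85.8 CPM in FEZ1-null and 27.9 to 35.5 CPM in wildtype organoids. NEUROD1, NHLH1, PPP1R17, INSM1 and HES6 were above their level in the low libraries of day 10 both in the wildtype B16 libraries of day 10 and at day 60. In wildtype organoids PPP1R17 and NEUROD1 were lower at day 60 than in B16 libraries of day 10, as given above. Whether these members are expressed in the same cells as the listed genes was not tested.

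Between genotypes at day 60, 0 of 10 members passed in edgeR's test, 0 in DESeq2 and 0 had an unadjusted p below 0.05, where 0.0225% of all genes passed in edgeR, all of them lower. NEUROD2 was at -0.65 ± 0.36 on the log2 scale (adjusted p = 1), and NEUROD6 was at -0.43 ± 0.27. NEUROD1 and INSM1 were at 0.67 ± 1.55 and 0.55 ± 1.24. The spread in this fit includes the difference between codes at day 10. With the day 10 codes as groups of their own, the errors were smaller and 0 members passed. In edgeR's test NEUROD2 then lay at -0.65 ± 0.20 (unadjusted p = 0.00865, adjusted p = 0.231) and NEUROD1 at 0.67 ± 0.33 (adjusted p = 0.544). HES6 at 0.37 ± 0.22, NHLH1 at -0.20 ± 0.39 and PPP1R17 at 0.29 ± 0.23 differed by less than 2 SE in that fit.

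Of 115 genes of the 13 other lists tested at day 60, 0 passed in edgeR's test between genotypes, 17 had an unadjusted p below 0.05 and DESeq2 called 2, ATOH7 and OTX2. Over all genes 5.6% had an unadjusted p below 0.05 and DESeq2 called 133. ATOH7, the proneural factor of retinal ganglion cells, was at 1.72 ± 0.38 (adjusted p = 0.328) and OTX2 at 1.59 ± 0.27 (adjusted p = 0.150) on the log2 scale in edgeR's test. SLC17A7, a vesicular glutamate transporter of cortical neurons, was at -0.81 ± 0.38 and did not pass. PAX6, a radial glia factor, was at 0.56 ± 0.17, with 333 to 354 CPM in FEZ1-null and 223 to 245 CPM in wildtype organoids, and did not pass either (adjusted p = 0.500).

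The members were also compared with each other by their course over the 12 libraries. Likeness was measured as the root mean square difference of log2 CPM after each gene was centred on its mean. Genes were not scaled, so the distance also depends on how much each gene changed. NEUROD1 and NHLH1 were the closest members (0.337), followed by NEUROD2 and NEUROD6 (0.532), NEUROD1 and PPP1R17 (0.542) and NHLH1 and PPP1R17 (0.543). EOMES lay nearest to NEUROG2 (1.03), and BTG2 was more than 2 log2 units from every other member, nearest to HES6 (2.33). These distances describe the same 12 libraries as the tests above.

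Among the tested genes other than the members, with clone names and bare identifiers left out, the closest to NHLH1 was NEUROG1 (0.231). NEUROG1 was also the closest of them to NEUROD1 (0.406), though the member NHLH1 lay closer to NEUROD1 (0.337). PPP1R17 lay nearest to EBF1 (0.491), INSM1 to CBLN1 (0.264), SRRM4 (0.340) and SYP (0.343), and HES6 to CHRNA4 (0.189). NEUROG2 lay nearest to ATP8A2 (0.223) and KCNK12 (0.282), and EOMES to DSCAM (0.467), ANKRD34A (0.510) and HR (0.511). NFIB was the closest of these genes both to NEUROD2 (0.657) and to NEUROD6 (0.724), which lay closer to each other (0.532). BTG2, which changed least, lay nearest to TMEM198B (0.0913).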

How the data were processed

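Bulk RNA sequencing of 12 organoid libraries was read from the raw count table by gene symbol that the authors deposited. Per the submitters' processing notes, STAR, HTSeq, DESeq2 and the build hg19 were used, and versions, settings and gene annotation were not given in the sources used here. The signal in the authors' deposited normalized table equals the count divided by 1 factor per library (tolerance 1e-06, 100% of 225814 values) and was used no further. Log2 fold changes and p-values from the authors' deposited table are quoted only where that table is named, and the authors' deposited test score there was not used.

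Of 28207 genes, 3350 had no count and 17757 passed edgeR's filterByExpr. In all, 2 edgeR quasi-likelihood fits (TMM, robust) used all 12 libraries, the first with 4 groups of genotype and day for the comparisons over all day 10 libraries and between genotypes at day 60, the second with 6 groups of 2 libraries in which day 10 was split into B16 and B27 with B29, for all others. Adjusted p-values are Benjamini-Hochberg over 17757 genes, two-sided, with a threshold of 0.05. SE is the log2 fold change divided by the square root of F. CPM uses library size times TMM factor, and log2 CPM a prior count of 2. CPM is not scaled to gene length, so levels of different genes are not compared. Ratios of few counts carry exact binomial 95% intervals. Scripts were tested on simulated data. The software was R 4.3.3, edgeR 4.0.16 and DESeq2 1.42.0.

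The members, the gene lists and the tests were chosen with earlier results of these data known. Named were all members, up to 3 called or 2 uncalled genes of each other list with the smallest p between codes in wildtype organoids of day 10 and between genotypes at day 60, the 3 genes nearest to each member, of which some are printed, and FEZ1. Some genes that this rule names are not reported here. Alternatives were RLE scaling, no filter, DESeq2, a replicate block, other groupings and leaving out each library.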

Additional observations from a re-analysis of the deposited data

Results flagged for a closer look

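The genotype effect at day 10 differed between codes for 4 members by a direct test in edgeR, which 5.95% of all genes passed (4.44% in the negative direction). The difference is the effect within B16 minus the effect within B27 and B29 on the log2 scale. It was -7.03 for NEUROD1 (-6.12 within B16 and 0.91 within B27 and B29), -6.88 for NHLH1 (-5.88 within B16 and 1.01 within the others), -6.52 for PPP1R17 (-7.03 within B16 and -0.51 within the others) and -5.19 for INSM1 (-4.18 within B16 and 1.01 within the others). Each rests on 2 libraries per genotype and set of codes, and both wildtype B16 libraries stood above the other 6 in each of these genes. The positive values of NEUROD1, NHLH1 and INSM1 within B27 and B29 came mainly from FEZ1-null replicate 4 of day 10 (B29).

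The change from day 10 to day 60 within B16 differed between genotypes for 5 members, where 7.68% of all genes passed (5.63% in the positive direction). The difference is FEZ1-null minus wildtype on the log2 scale. It was 7.32 for PPP1R17, 6.79 for NEUROD1, 5.68 for NHLH1, 4.72 for INSM1 and 2.19 for HES6. The same wildtype B16 libraries of day 10 enter both sets of differences.

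In the day 10 groups of 4 libraries, 1 library stood apart from the others for NEUROD6. It was FEZ1-null replicate 2 (0.0469 CPM) and wildtype replicate 2 (0.0521 CPM), each with 1 count where the 3 others had 0, at the limit of what these libraries can count. The criterion was the 95% critical value of Dixon's test, which chance alone passes in about 1 of 20 groups of continuous values.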

How the results depend on the processing

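Over 120 pairs of a member and a comparison, 2070 values were recomputed under the alternatives. Of the 58 pairs that passed, 0 changed sign under any alternative run, and 4 calls were lost, all of them the fall of NHLH1 with time in wildtype B16 libraries, as given above. Sign changes occurred in 46 values, all in pairs that did not pass, and 24 calls were gained. Genotypes over all day 10 libraries gave 0 members called in edgeR, 3 with DESeq2 and 5 with the day 10 codes as groups of their own. Between codes in FEZ1-null organoids of day 10, 0 members were called, against 1 (HES6) with no filter on low counts, 1 with DESeq2 and 0 to 1 when each library was left out in turn, the 1 being without FEZ1-null replicate 2 of day 10.

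The number of genes called, and so the share of all genes given beside each count of members, moved far more. Genotypes within B16 at day 10 gave 3369 genes, against 2024 with B27 and B29 kept apart and 1036 (without wildtype replicate 2 of day 10) to 8778 (without FEZ1-null replicate 2 of day 10) with 1 library left out. The difference of this effect between codes gave 1057 genes, against 337 to 7155, the codes in wildtype organoids 2983, against 1050 to 6073, the codes in FEZ1-null organoids 534, against 3 to 8299, and the interaction with day 1363, against 619 to 7374. In these 4 comparisons the highest count came without FEZ1-null replicate 2 of day 10. That leaves replicate 1, which lay far from the other FEZ1-null libraries of day 10, as the only FEZ1-null B16 library of that day. Genotypes over all of day 10 gave 22 genes, 500 with DESeq2, 1053 with 6 groups and 43 with the code as a block, and genotypes at day 60 gave 4, with 133 by DESeq2, 48 with 6 groups, 89 with day 60 libraries alone and 2 to 213 with 1 library left out. The 5 members called within B16 stayed called with any 1 library left out.

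At day 10 the correlation between genotypes of the deviations of same-numbered libraries from their group means was 0.122, -0.0755, 0.297 and -0.0956 for numbers 1 to 4. These deviations include the difference between codes, so they cannot decide whether same-numbered libraries were paired. Taken within sets of codes, with 2 libraries per group, the correlation was -0.0395 for B16 and 0.0650 for B27 and B29. With a replicate block, 5 members were called within B16, 0 over all of day 10, 0 at day 60, 0 within B27 and B29, 4 in the difference of the effects and 5 in the interaction. Among all genes the block gave 2495 calls within B16, 732 in the difference of the effects and 1038 in the interaction. It gave 29 over all of day 10, 3 at day 60 and 5 within B27 and B29. With so few genes called there, 0 members does not set the members apart from other genes. Between codes in wildtype organoids, 6 members were called with the block, the added one being EOMES (adjusted p = 0.0186), against 5 without it, and EOMES was also called with B27 and B29 kept as separate groups. Among all genes that comparison gave 2259 calls with the block and 2983 without it.

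With 6 groups, the SE of the day 60 difference between genotypes ranged up to 0.42 among the members, for EOMES, and a p above the threshold there does not show that the genotypes were alike. The codes cannot be told apart from whatever they stand for, and B16 is the only code at day 60.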
